A study of Mus musculus with 8 samples.

Results

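The 47 genes described here act in DNA replication and S phase, the stage of the cell cycle in which the genome is copied. They were taken as a named list covering origin licensing, the MCM and GINS helicase components, DNA polymerases, the clamp and its loader, nucleotide synthesis and chromatin assembly, a choice by role that used no measured value, although the list was drawn up with earlier results of these data known. All 47 are among the 55357 genes of the count table, and all 47 had enough counts to be among the 14514 genes tested. The libraries come from bone marrow-derived macrophages (BMDM) of wild-type C57BL/6J mice, grown in macrophage colony-stimulating factor (M-CSF). Sphingosine d18:1, abbreviated So(d18:1), a sphingoid base dissolved in methanol, was given to 4 cultures at 2 µM for 6 h. The 4 Control cultures received methanol alone for 6 h. The labels give no sex or age for the mice and do not say whether the cultures came from separate animals, although the study calls its sequenced samples biologically independent, so p-values measure the spread between these libraries, which may be technical. The study sequenced BMDM to search for pathways that So(d18:1) changes, and the comparison of the groups answers that question for the replication genes. The labels name no inflammatory stimulus, whereas the text of the study places the sequenced BMDM under one.

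Replication starts with licensing. The origin recognition complex, Cdc6 and Cdt1 load the ring-shaped MCM helicase onto DNA in G1, and geminin (Gmnn) blocks Cdt1 afterwards so that each origin is used once per cycle. Cdc45 and the GINS complex then turn MCM into an active helicase, and DNA polymerases copy both strands with the help of the sliding clamp PCNA. Many of these genes are transcribed around the G1/S transition by E2F factors, while genes of mitosis are transcribed later, often through CHR and CCAAT promoter elements. M-CSF is a mitogen for macrophage precursors, and cultures grown in it can hold cells in cycle.

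Between 17748397 and 26088609 reads per library were counted on genes. Libraries of one group differed by more than counting noise, with a chi-square per gene of 2.76 to 12.2, and within Control the pairs that differed least were replicates 1 and 2, and replicates 3 and 4. Macrophage markers were high in every library, with 8 genes summing (in CPM, counts scaled to a common library total) to 30650 to 32994 CPM in Control and 26524 to 31475 CPM in So(d18:1). Of these markers 2 fell, Mertk and Cd68, and 1 rose, Itgam (37.5% together), while 5.07% of all tested genes fell and 3.87% rose. The 4 T cell markers had at most 3 counts in any library. The 8 neutrophil and granule markers, none of which was at 0 in any library, summed to 1682 to 2325 CPM in Control, highest in replicates 3 and 4, and to 1325 to 1506 CPM in So(d18:1). All 8 had lower estimates with So(d18:1) and 4 fell, S100a8, S100a9, Mpo and Elane. The 5 progenitor markers summed to 1156 to 1467 CPM in Control and 1101 to 1221 CPM in So(d18:1), and 1 fell, Ly6c2. Ccr2 made up most of that sum, at 1117 to 1431 CPM and 1071 to 1190 CPM in the same order. The sum therefore says little of the other progenitor markers. Estimates were lower for 3 of the 5 and higher for 2, Cd34 and Flt3. For Cd34 and Flt3 the log2 fold changes were 0.205 and 0.509 (adjusted p = 0.611 and 0.126 in edgeR's quasi-likelihood test). B cell, stromal, dendritic cell and erythroid markers each summed to at most 17.7 CPM in a library. The markers named in this paragraph were picked out after their values were seen. In bulk RNA, fewer cells of a type and less RNA per cell cannot be told apart.

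The replication genes changed little. Of the 47 members, 2 rose with So(d18:1), Rpa2 and Mcm10, and 0 fell at an adjusted p under 0.05 in edgeR's quasi-likelihood test, the source of each adjusted p below unless another tool is named, a share of 4.26% beside 8.94% of all tested genes (3.87% higher and 5.07% lower). At an unadjusted p under 0.05 the members numbered 10, of which 8 were higher (11.4% of all tested genes were) and 2 lower, Mcm3 and Pcna (11.9% were), and the Wald test of DESeq2 and edgeR's likelihood ratio test each called 3 higher and 1 lower. Of all 14514 tested genes, those tests called 1495 (DESeq2) and 1565 (likelihood ratio). The count of calls was 0 without Control replicate 4 or So(d18:1) replicate 2, 4 without Control replicate 2 and 1 without any other single library. Over all tested genes it was 872 without Control replicate 4, 815 without So(d18:1) replicate 2 and 1370 without Control replicate 2. The 10 members at an unadjusted p under 0.05 are 21.3% of the list beside 23.4% of all genes. The sign of the estimate was positive for 32 members and negative for 15, and the median log2 fold change was 0.06, with a range from -0.36 (Orc1) to 0.46 (Mcm10), beside a median of 0.00361 over all tested genes. For 7 members (14.9%) every So(d18:1) library was above every Control library, beside 7.14% of all tested genes. These were Gmnn, Orc6, Mcm10, Rfc3, Rpa2, Lig1 and Tyms. For 1 member, Dnmt1 (2.13%), every So(d18:1) library was below every Control library, beside 7.87% of all genes. Summed over the 47 genes, the libraries averaged 1019 ± 26.3 and 1036 ± 25.7 CPM in Control and So(d18:1) (SD, n = 4 per group), a ratio of 1.02.

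The size of change that these libraries leave possible was small for most members. The median standard error (SE) was 0.102 on the log2 scale, beside 0.0868 over all tested genes. For 42 of the 47 members the whole 95% interval of the fold change lay within 1.5-fold in either direction, and for 22 it lay within 1.25-fold. Of all 14514 tested genes, 10537 and 7397 had intervals within 1.5-fold and 1.25-fold. The interval reached a 1.5-fold rise for Mcm10, Pole and Tyms, and a 1.5-fold fall for Orc1 and Fen1. No member met the thresholds of the study's own methods, an unadjusted p under 0.05 together with a fold of at least 1.5, which 3.89% of all tested genes met.

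**Figure D1:**
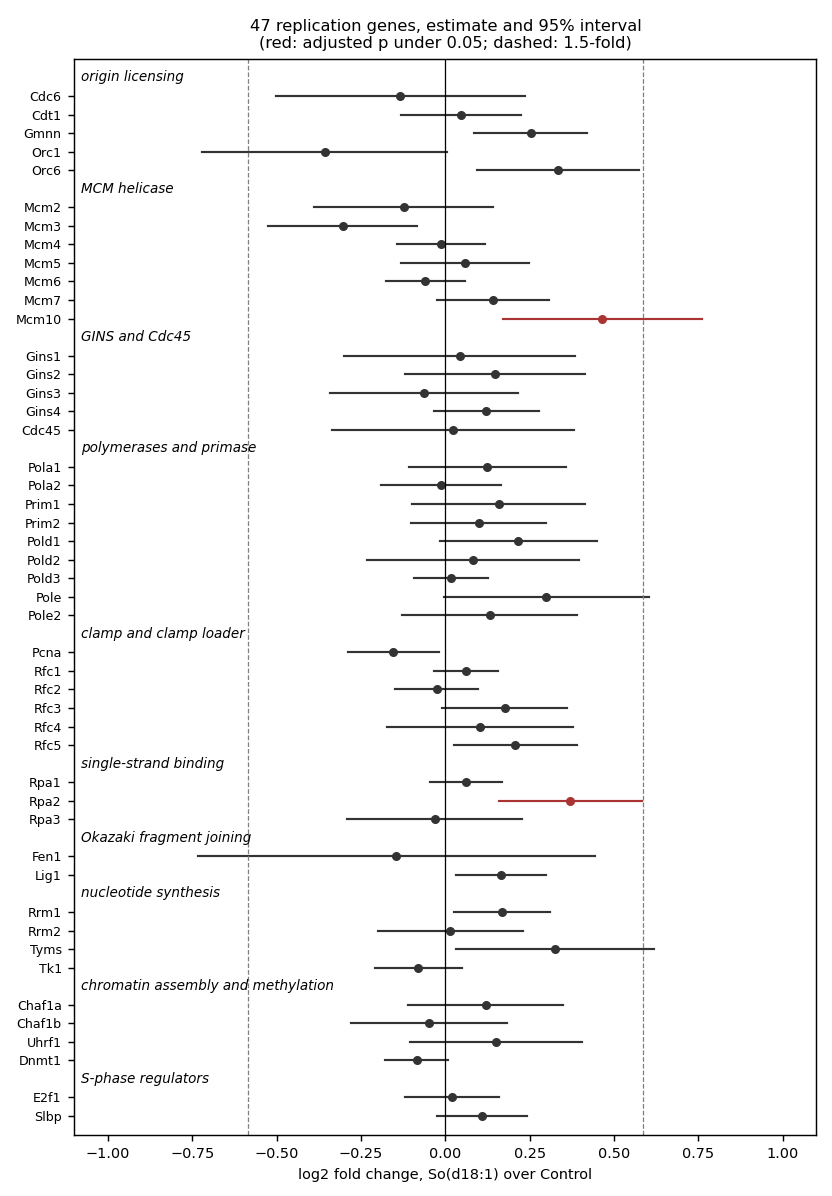
Log2 fold change of So(d18:1) over Control (horizontal axis) for each of the 47 replication genes, grouped by role; points are the estimates of edgeR's quasi-likelihood fit, bars the 95% intervals, and dashed lines a 1.5-fold change either way. Rpa2 at 0.37 and Mcm10 at 0.46, in red, have an adjusted p under 0.05, and most other intervals cross 0.

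Promoter sequence from RefSeq (GRCm38.p6) was searched for E2F, CHR and CCAAT elements from 250 bases before to 50 bases after each gene's start, in 39 of the 47 members. The E2F element was searched as TTTCCCGC, TTTCGCGC, TTTGCCGC or TTTGGCGC, the CHR element as TTTGAA or TTCGAA, and the CCAAT box as CCAAT, on both strands, with overlapping matches counted separately. An E2F match was present in 16 of the 39 members (41.0%) and in 2.60% of 27025 genes with a window. A CHR match was present in 20.5% of the members and 21.7% of all genes, and a CCAAT match in 64.1% and 41.1%. The promoters of 5 genes are shown for what they share and how they differ. Mcm5 and Mcm6, subunits of the MCM ring, each carry an E2F match that reads on both strands at once, Rpa2 and Mcm10 are the 2 members that rose, and Cdc20 is a gene of mitosis that rose. Each is written 5′ to 3′ along its gene, with only the bases before the start that no annotated exon covers, and capitals mark matches. They lie at chr8:75109259-75109508 on the + strand for Mcm5, chr1:128359706-128359955 on the - strand for Mcm6, chr4:132768110-132768331 on the + strand for Rpa2, chr2:5012792-5013041 on the - strand for Mcm10 and chr4:118437353-118437593 on the - strand for Cdc20.
Mcm5: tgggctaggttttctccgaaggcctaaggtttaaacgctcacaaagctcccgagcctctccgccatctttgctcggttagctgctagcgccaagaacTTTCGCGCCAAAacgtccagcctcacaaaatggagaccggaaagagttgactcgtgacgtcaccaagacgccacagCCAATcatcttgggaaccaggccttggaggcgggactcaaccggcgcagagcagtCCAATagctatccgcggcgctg
Mcm6: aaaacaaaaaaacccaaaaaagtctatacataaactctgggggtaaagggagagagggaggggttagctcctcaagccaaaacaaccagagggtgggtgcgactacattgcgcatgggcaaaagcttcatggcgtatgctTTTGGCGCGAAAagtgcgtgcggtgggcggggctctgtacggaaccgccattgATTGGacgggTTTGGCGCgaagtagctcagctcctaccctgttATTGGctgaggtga
Rpa2: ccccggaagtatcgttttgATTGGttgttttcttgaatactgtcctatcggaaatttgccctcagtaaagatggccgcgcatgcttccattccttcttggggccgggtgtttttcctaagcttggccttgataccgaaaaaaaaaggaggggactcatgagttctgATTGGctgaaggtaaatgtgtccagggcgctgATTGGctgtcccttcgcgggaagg
Mcm10: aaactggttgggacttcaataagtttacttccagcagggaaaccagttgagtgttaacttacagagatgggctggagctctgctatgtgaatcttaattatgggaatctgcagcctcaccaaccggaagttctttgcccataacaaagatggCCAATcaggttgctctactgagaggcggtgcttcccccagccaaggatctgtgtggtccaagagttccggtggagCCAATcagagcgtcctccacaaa
Cdc20: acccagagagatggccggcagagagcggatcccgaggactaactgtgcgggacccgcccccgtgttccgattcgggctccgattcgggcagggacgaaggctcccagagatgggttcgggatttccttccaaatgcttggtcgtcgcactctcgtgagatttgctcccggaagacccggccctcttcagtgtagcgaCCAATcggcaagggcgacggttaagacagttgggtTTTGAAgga
The stretches of Mcm5 and Mcm6 hold overlapping E2F matches and 2 CCAAT boxes each, that of Rpa2 holds 3 CCAAT boxes, that of Mcm10 holds 2, and that of Cdc20 holds a CCAAT box and a CHR match. The stretch of Cdca8, another mitosis gene that rose, is not shown. It has only 41 bases, with a CCAAT box and no CHR match. A match is a run of letters and no evidence of binding, and the absence of one says only that these letters are not in this window. The 16 members with an E2F match had a median log2 fold change of 0.05, and 0 of them were called by edgeR's quasi-likelihood test, with 2 at an unadjusted p under 0.05 (Mcm3 and Lig1), of which Mcm3 was called by the likelihood ratio test and by DESeq2. The 23 members with a window and no E2F match had a median of 0.06, and 2 (8.70%) were called, beside 8.94% of all tested genes. At an unadjusted p under 0.05 they numbered 7 (30.4%), beside 12.5% of the members with a match and 23.4% of all tested genes. The difference between members with and without a match was not tested.

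**Figure D2:**
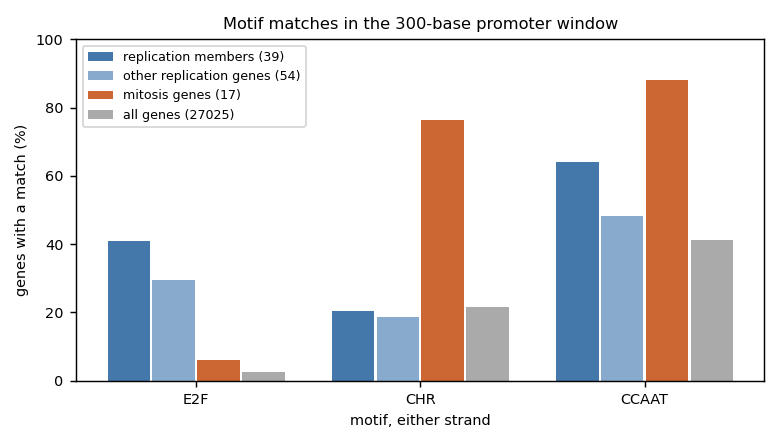
Share of genes (vertical axis, percent) with a match to the E2F, CHR or CCAAT element on either strand of the 300-base promoter window, for the replication members, other replication genes, mitosis genes and all genes with a window. E2F matches were in 41.0% of members and 5.88% of mitosis genes, and CHR matches in 20.5% and 76.5%.

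Of the 5 origin licensing genes none passed the test, and the median log2 fold change was 0.05. Gmnn, which encodes geminin, the inhibitor of Cdt1, lies on chromosome 13 from 24751845 to 24761923 (ENSMUSG00000006715; this and the positions that follow are mm10). Its level was 16.5, 15.0, 15.9 and 14.3 CPM in Control replicates 1 to 4 and 17.2, 18.7, 19.9 and 17.5 CPM in So(d18:1). Every So(d18:1) library was above every Control library, highest in replicate 3. The log2 fold change was 0.25 (SE 0.0803, 95% interval 0.09 to 0.42), which missed the threshold with an adjusted p of 0.0528 (edgeR's quasi-likelihood test). It passed at 0.0475 in the Wald test of DESeq2, at 0.0445 in edgeR's likelihood ratio test and at 0.0487 when scaled by library size alone. Gmnn passed in 0 of the 8 fits with a library left out, with an edgeR adjusted p of 0.0523 to 0.153. Orc6, a subunit of the origin recognition complex, also had separate groups, at 5.74 to 8.08 CPM in Control and 8.27 to 9.27 CPM in So(d18:1). Its log2 fold change was 0.33 (edgeR adjusted p = 0.0769), with an adjusted p of 0.0382 without Control replicate 2. In the other 7 fits with a library left out Orc6 did not pass. Estimates ranged from 0.25 to 0.41 over the 8 fits, and the edgeR adjusted p was highest, at 0.236, without Control replicate 4. Orc1, the subunit present mainly around G1, had the most negative estimate of the list, -0.36 (95% interval -0.72 to 0.00), with overlapping groups of 2.78 to 3.66 CPM and 2.06 to 2.86 CPM and an adjusted p of 0.219 in edgeR's test. The loading factors Cdc6 and Cdt1 had estimates of -0.13 and 0.05.

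The MCM genes encode the 6 subunits of the replicative helicase, and Mcm10 a separate factor that activates it at origins. Mcm10 rose. Its level was 4.96, 4.50, 4.76 and 3.55 CPM in Control replicates 1 to 4 and 5.22, 7.28, 6.14 and 5.78 CPM in So(d18:1). All 4 So(d18:1) libraries lay above Control, with replicate 2 the highest and Control replicate 4 the lowest of the 8. This came to 0.46 on the log2 scale (SE 0.142, 95% interval 0.17 to 0.76, edgeR adjusted p = 0.0437). It rests on 86 to 161 counts per library over a gene on chromosome 2 from 4989714 to 5012791 (ENSMUSG00000026669) whose exons overlap no other gene. The call held in 2 of the 8 fits with a library left out. It was lost without Control replicates 2, 3 or 4 (edgeR adjusted p = 0.0625, 0.0533 and 0.151) and without So(d18:1) replicates 2, 3 or 4 (0.171, 0.0762 and 0.0679), as it was under upper quartile scaling (0.0503) and limma-voom (0.0502), with estimates of 0.37 to 0.53 when a library was left out.

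None of Mcm2 to Mcm7 passed the test, and their sum averaged 163.8 ± 10.4 and 156.7 ± 5.56 CPM in Control and So(d18:1) (SD, n = 4 per group). Mcm3 stood farthest from 0 among them. Its level was 35.0, 29.2, 44.5 and 38.1 CPM in Control replicates 1 to 4 and 30.7, 30.0, 29.7 and 28.5 CPM in So(d18:1). The So(d18:1) libraries lay close together and Control replicate 2 lay among them, while Control replicate 3 was far above the rest. The estimate, as log2 fold change, was -0.30 (SE 0.102, 95% interval -0.53 to -0.08, edgeR adjusted p = 0.0891). Without Control replicate 2 the estimate was -0.40 with an adjusted p of 0.00107 in edgeR. In the other 7 fits with a library left out Mcm3 did not pass. Estimates ranged from -0.40 to -0.20 over the 8 fits, and the edgeR adjusted p was highest, at 0.232, without So(d18:1) replicate 4. With all libraries Mcm3 also passed with no filter on low counts (0.000411), in edgeR's likelihood ratio test (0.0408) and in DESeq2 (0.0288).

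The other subunits moved less. Mcm2 was at 9.96, 9.27, 12.6 and 12.3 CPM in Control replicates 1 to 4 and 11.7, 10.9, 10.3 and 7.92 CPM in So(d18:1), or -0.12 as log2 fold change (95% interval -0.39 to 0.14). Its Control libraries split, with replicates 3 and 4 above replicates 1 and 2, and the groups overlapped. Mcm4 was at 34.0, 33.7, 34.3 and 30.4 CPM and at 32.9, 33.1, 30.4 and 34.6 CPM in the same order, or -0.01 as log2 fold change (95% interval -0.14 to 0.12). Mcm5 was at 15.0, 15.8, 13.5 and 15.2 CPM and at 14.5, 18.1, 14.0 and 15.3 CPM, or 0.06 as log2 fold change (95% interval -0.13 to 0.25). The groups overlapped for both genes, and only So(d18:1) replicate 2 stood out for Mcm5. Mcm6, whose promoter is shown above, was at 44.6, 42.7, 48.5 and 44.6 CPM and at 43.3, 41.4, 42.5 and 45.7 CPM, or -0.06 as log2 fold change (95% interval -0.18 to 0.06). The groups of Mcm6 overlapped too, with Control replicate 3 the highest. Mcm7 was at 23.1, 21.9, 24.3 and 22.7 CPM and at 24.2, 30.2, 23.2 and 23.8 CPM, or 0.14 as log2 fold change (95% interval -0.03 to 0.31). So(d18:1) replicate 2 was the high library for Mcm7, and without it the estimate was 0.05. Exons of Mcm7 overlap those of other genes, and 23.3% of its 50-base words occur in another gene, so its counts are uncertain. For Mcm4 to Mcm7 the whole interval lay within 1.25-fold in either direction.

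**Figure D3:**
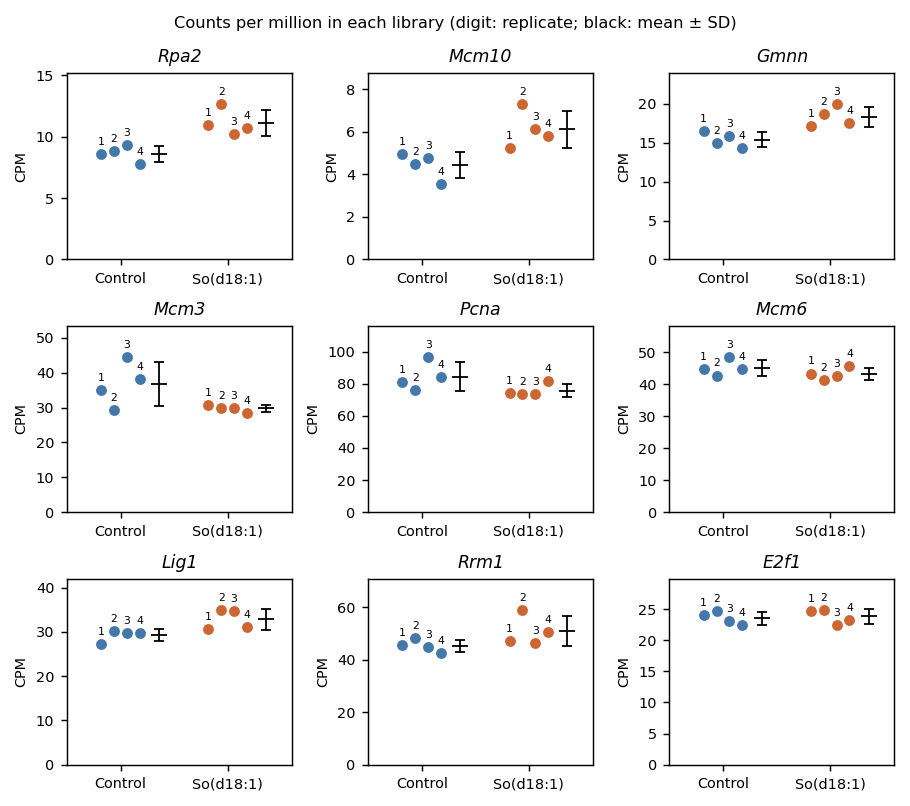
Level in CPM (vertical axes, from 0) of 9 replication genes in each library, Control in blue and So(d18:1) in orange, with the replicate number above each point and the mean ± SD of 4 libraries in black. The groups are separate for Rpa2, Mcm10, Gmnn and Lig1 and overlap for the others, and Control replicate 3 is the highest library for Mcm3, Pcna and Mcm6.

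The 4 GINS subunits and Cdc45, which complete the active helicase, gave 0 calls in edgeR's quasi-likelihood test and 0 at an unadjusted p under 0.05, and the 5 estimates lay between -0.06 (Gins3) and 0.15 (Gins2). Gins4 had the smallest p among them. It was at 23.7, 20.5, 21.9 and 22.1 CPM in Control replicates 1 to 4 and 23.3, 24.7, 21.3 and 26.2 CPM in So(d18:1), or 0.12 as log2 fold change (95% interval -0.03 to 0.28, edgeR adjusted p = 0.353). The groups overlapped, with So(d18:1) replicate 4 the highest. Cdc45, at 3.07 to 5.31 CPM over the 8 libraries, and Gins1, at 2.41 to 3.38 CPM, had wide intervals of -0.33 to 0.38 and -0.30 to 0.39. Gins2 shares 2758 of its 4097 exon bases with Gse1, so its counts are uncertain.

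Of the 9 polymerase and primase genes, 8 had a positive estimate, with a median of 0.12, and 0 reached even an unadjusted p under 0.05 in edgeR's quasi-likelihood test. Their sum averaged 137.3 ± 1.31 and 144.8 ± 6.74 CPM in Control and So(d18:1) (SD, n = 4 per group), with ranges of 136 to 139 CPM and 137 to 153 CPM that overlapped. Pole, the catalytic subunit of the leading-strand polymerase, had the smallest p. It was at 5.29, 4.30, 4.43 and 4.46 CPM in Control replicates 1 to 4 and 6.84, 6.42, 4.69 and 4.81 CPM in So(d18:1). The So(d18:1) libraries split into a high pair, replicates 1 and 2, and a low pair inside the Control range. In log2 terms the fitted change was 0.30 (SE 0.146, 95% interval -0.01 to 0.60, edgeR adjusted p = 0.221). Pold1, the catalytic subunit of the lagging-strand polymerase, had an estimate of 0.22 (95% interval -0.02 to 0.45), whereas its accessory subunit Pold3, the most counted of these genes at 56.1 ± 1.44 and 56.7 ± 3.44 CPM (SD, n = 4 per group), had one of 0.02 (95% interval -0.09 to 0.13). Polymerase alpha and primase, which lay down the RNA-DNA primers, had estimates of 0.12 (Pola1), -0.01 (Pola2), 0.16 (Prim1) and 0.10 (Prim2). Pold2 and Pole2 were at 0.08 and 0.13.

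Pcna encodes the ring that holds polymerases on DNA and is widely used as a marker of proliferation. It was at 81.0, 75.8, 96.8 and 84.2 CPM in Control replicates 1 to 4 and 74.0, 73.9, 73.7 and 81.5 CPM in So(d18:1). So(d18:1) replicates 1 to 3 were below every Control library and replicate 4 was not, and Control replicate 3 was again the highest. The log2 fold change was -0.15 (SE 0.0638, 95% interval -0.29 to -0.02, edgeR adjusted p = 0.148). Without Control replicate 2 it was -0.20 with an edgeR adjusted p of 0.0361. Of the 8 fits with a library left out, that 1 alone passed. Estimates ranged from -0.20 to -0.08 over the 8 fits, and the edgeR adjusted p was highest, at 0.431, without Control replicate 3. Of the 50-base words of Pcna 19.1% occur in another gene, mainly the processed copy Pcna-ps2. The clamp loader genes Rfc1 to Rfc5 had estimates of 0.06, -0.03, 0.18, 0.10 and 0.21 and none passed. Rfc3 was the loader gene whose groups did not overlap, at 10.4 to 11.98 CPM and 12.1 to 12.7 CPM (edgeR adjusted p = 0.239).

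Rpa2 rose, and it was the member with the smallest p. It encodes the middle subunit of replication protein A (RPA), the trimer that coats single-stranded DNA at forks and in repair, and lies on chromosome 4 from 132768332 to 132778752 (ENSMUSG00000028884). Its level was 8.56, 8.80, 9.27 and 7.76 CPM in Control replicates 1 to 4 and 10.9, 12.6, 10.2 and 10.7 CPM in So(d18:1), from 178 to 279 counts per library. Every So(d18:1) library was above every Control library, with replicate 2 the highest. This came to 0.37 on the log2 scale (SE 0.102, 95% interval 0.16 to 0.58, edgeR adjusted p = 0.0260). Its exons overlap no other gene. The call was kept under every scaling, filter and test tried with all 8 libraries and was lost in 4 of the 8 fits with a library left out, those without Control replicates 1 or 4 (edgeR adjusted p = 0.0548 and 0.0914) or So(d18:1) replicates 1 or 2 (0.0508 and 0.112), with estimates of 0.30 to 0.41 over the 8 fits. The partners of Rpa2 in the trimer did not pass. Rpa1, the large DNA-binding subunit, was at 46.3 to 49.2 CPM in Control and 47.02 to 50.4 CPM in So(d18:1), with an estimate of 0.06 (95% interval -0.05 to 0.17). Rpa3, the small subunit, was at 7.64 to 8.96 and 6.06 to 8.92 CPM, or -0.03 as log2 fold change (95% interval -0.29 to 0.23). The difference between Rpa2 and its partners was not tested.

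The enzymes that finish lagging-strand fragments are the flap nuclease Fen1 and DNA ligase 1, encoded by Lig1. Lig1 was at 27.4, 30.3, 29.7 and 29.8 CPM in Control replicates 1 to 4 and 30.7, 35.1, 34.6 and 31.0 CPM in So(d18:1). The groups did not overlap, though the lowest So(d18:1) library and the highest Control library were close. The estimate, as log2 fold change, was 0.16 (SE 0.0644, 95% interval 0.03 to 0.30, edgeR adjusted p = 0.121). Fen1 was counted at 0.769 to 2.07 CPM, and 2039 of its 2422 exon bases are also exons of genes on the opposite strand, so its level is uncertain.

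Nucleotide synthesis was represented by both subunits of ribonucleotide reductase, thymidylate synthase and thymidine kinase. Rrm1, the large reductase subunit, was at 45.6, 48.1, 45.0 and 42.7 CPM in Control replicates 1 to 4 and 47.3, 59.1, 46.3 and 50.8 CPM in So(d18:1). The groups overlapped, and So(d18:1) replicate 2 lay far above the rest. In log2 terms the fitted change was 0.17 (SE 0.0685, 95% interval 0.02 to 0.31, edgeR adjusted p = 0.140), and 0.09 without that library. Tyms, thymidylate synthase, had an estimate of 0.33 (95% interval 0.03 to 0.62, edgeR adjusted p = 0.163), and its highest library was also So(d18:1) replicate 2, at 7.24 CPM against 4.74 to 5.39 CPM in the other So(d18:1) libraries. Rrm2, the small reductase subunit whose transcript is tied most closely to S phase, had an estimate of 0.01 (95% interval -0.20 to 0.23), and Tk1, thymidine kinase, one of -0.08 (95% interval -0.21 to 0.05).

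Among the genes that rebuild chromatin behind the fork, Dnmt1, the maintenance DNA methyltransferase, had the highest count of all members. It was at 122.8, 123.0, 129.3 and 128.1 CPM in Control replicates 1 to 4 and 122.1, 118.9, 122.7 and 110.9 CPM in So(d18:1). All So(d18:1) libraries were below all Control libraries, but the gap was narrow and replicate 4 accounted for the low end. The log2 fold change was -0.09 (SE 0.0450, 95% interval -0.18 to 0.01, edgeR adjusted p = 0.261). Uhrf1, which guides Dnmt1 to newly copied DNA, and the histone chaperone subunits Chaf1a and Chaf1b had estimates of 0.15, 0.12 and -0.05. Exons of Chaf1a overlap those of Ubxn6 over 4648 of 8854 bases.

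The S-phase regulators showed no call. E2f1, an activating E2F factor, was at 24.0, 24.7, 23.0 and 22.4 CPM in Control replicates 1 to 4 and 24.7, 24.9, 22.4 and 23.3 CPM in So(d18:1). The libraries of the groups were interleaved. This came to 0.02 on the log2 scale (SE 0.0671, 95% interval -0.12 to 0.16, edgeR adjusted p = 0.904). Slbp, which binds the end of histone transcripts and peaks in S phase, was at 30.4, 33.5, 36.2 and 33.02 CPM and at 33.8, 35.4, 38.4 and 36.05 CPM in the same order. The groups overlapped, and the estimate was 0.11 (95% interval -0.02 to 0.24, edgeR adjusted p = 0.320).

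Levels of different genes were set side by side as CPM per kb of exon, using the gene lengths in the deposited table. These lengths join all annotated exons of a gene, which understates a gene with long rarely used exons, so the orders are descriptions. In Control, MCM levels ran from 9.78 CPM per kb (Mcm3) through Mcm6, Mcm4, Mcm7 and Mcm5 to 1.59 CPM per kb (Mcm2), a 6.16-fold range. The libraries of Mcm3, Mcm6 and Mcm4 overlapped, and each of the lower 3 was separate from its neighbour. In So(d18:1), Mcm3 stood after Mcm6 and Mcm4, with libraries at 7.59 to 8.19 CPM per kb that lay below all 4 of Mcm4, and the highest and lowest subunits differed 6.33-fold. Gins4 was at 16.3 CPM per kb in Control, 11.5-fold above Gins2, while the levels of Gins1, Gins2 and Gins3 overlapped their neighbours. The 4 polymerase alpha and primase genes were within 1.02-fold of each other in Control and 1.13-fold in So(d18:1). For RPA the order Rpa1, Rpa3, Rpa2 was the same in both groups, and Rpa1 was 2.94-fold above Rpa2 in Control and 2.37-fold in So(d18:1). The loader order Rfc1, Rfc2, Rfc4, Rfc3, Rfc5 was also the same, from 12.5 to 2.92 CPM per kb in Control, with the lower 3 overlapping. Rrm1 and Rrm2 were at 4.12 and 4.13 CPM per kb in Control, and Chaf1b was 2.03-fold above Chaf1a. Exons of some of these genes overlap genes on the opposite strand. The overlap is 2758 of 4097 bases for Gins2, 4648 of 8854 for Chaf1a and 952 of 6303 for Rfc2. Ratios and places in the orders that involve such genes are therefore uncertain.

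**Figure D4:**
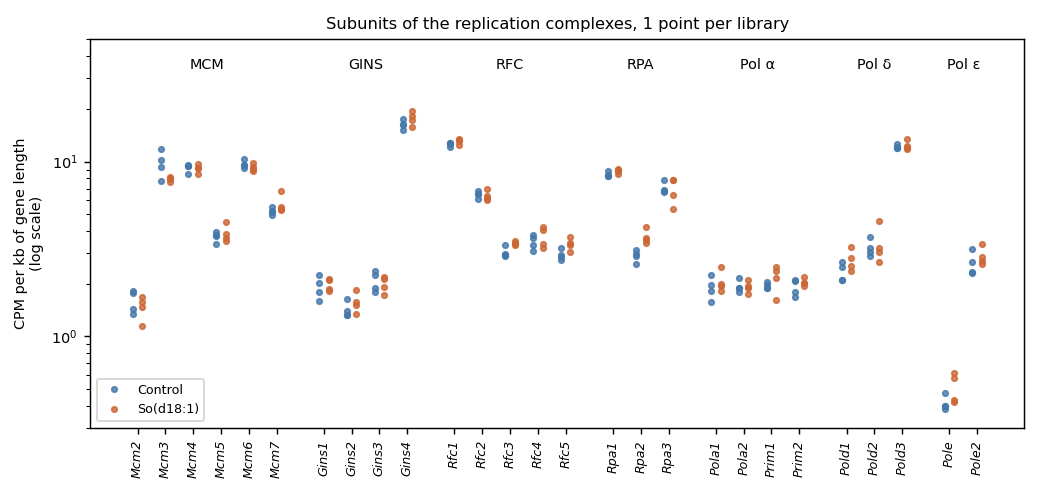
Level of each subunit of 7 replication complexes in CPM per kb of gene length (vertical axis, log scale), with 1 point per library, Control in blue and So(d18:1) in orange. Gins4, Rfc1 and Pold3 are the subunits with every library above 10 CPM per kb, Pole is the lowest, and all orange points lie above all blue ones for Rpa2 and Rfc3.

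A wider list of 68 other genes of replication and G1/S control, of which 67 were tested, gave 7 calls, 3 higher and 4 lower, with a median log2 fold change of 0.03. Their share of 10.4% was near the 8.94% of all tested genes (3.87% higher and 5.07% lower). At an unadjusted p under 0.05 they numbered 20 (29.9%), 12 higher and 8 lower, beside 23.4% of all tested genes. Log2 fold changes ranged from -0.66 (Ccnd1) to 0.75 (Ccna2, edgeR adjusted p = 0.156). The count of calls was 11 with no filter on low counts, and 4, 3 and 4 without Control replicate 3, Control replicate 4 and So(d18:1) replicate 4. All genes called numbered 1723 of 28076 with no filter, and 985, 872 and 901 without those libraries in the same order. The calls were 2 of the 12 E2F and RB family genes, 4 of the 12 cyclins, kinases, phosphatases and inhibitors of the G1/S transition and 1 of the 7 genes of chromatin at the fork. Cdk6, a kinase that starts the passage out of G1, fell. It was at 41.0, 42.7, 47.6 and 47.7 CPM in Control replicates 1 to 4 and 31.5, 28.4, 35.9 and 28.4 CPM in So(d18:1), or -0.53 as log2 fold change (SE 0.0751, edgeR adjusted p = 9.79e-05). Ccnd1, cyclin D1, a partner of Cdk6, fell from 8.91 ± 0.956 to 5.69 ± 1.04 CPM (SD, n = 4 per group), or -0.66 as log2 fold change (edgeR adjusted p = 0.00257). Groups were separate for both genes. E2f8, a repressing E2F factor that is itself an E2F target, rose. It was at 13.6, 14.0, 10.5 and 12.9 CPM in Control and 18.7, 21.8, 16.6 and 18.0 CPM in So(d18:1), or 0.56 as log2 fold change (SE 0.101, edgeR adjusted p = 0.000932). The calls of Cdk6, Ccnd1 and E2f8 held in all 8 fits with a library left out. Exons of each overlap another gene on the opposite strand, over 368 bases for Cdk6 (Gm17590), 1100 for Ccnd1 (LTO1) and 610 for E2f8 (Gm2788).

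The remaining 4 calls of that list were smaller or less stable. Cdkn1b, the cyclin-dependent kinase inhibitor p27, rose from 209 ± 13.0 to 238 ± 13.2 CPM (SD, n = 4 per group), or 0.19 as log2 fold change (edgeR adjusted p = 0.0236), and lost its call without Control replicates 3 or 4 (0.0698 and 0.0864) or So(d18:1) replicate 2 (0.108). Tfdp2, a dimer partner of E2F factors, rose by 0.27 on the log2 scale (edgeR adjusted p = 0.0431) and kept its call in 3 of the 8 fits, but not under upper quartile scaling (0.0612). Without Control replicates 3 or 4 its adjusted p was 0.109 and 0.129, and without So(d18:1) replicates 2, 3 or 4 it was 0.114, 0.0852 and 0.125. Cdc25a, the phosphatase that activates Cdk2, fell by 0.27 (edgeR adjusted p = 0.0346) and kept its call in 2 of the 8 fits. Without Control replicates 1, 3 or 4 its adjusted p was 0.0667, 0.101 and 0.0992, and without So(d18:1) replicates 2, 3 or 4 it was 0.0845, 0.0885 and 0.0763. Cdca7, a chromatin protein and E2F target, fell by 0.53 (edgeR adjusted p = 0.0475) from 4.24 ± 0.220 to 2.92 ± 0.672 CPM (SD, n = 4 per group). Among the 8 fits its call held only without So(d18:1) replicate 2 (0.0435), and in the other 7 the adjusted p lay between 0.0558 and 0.131. It was also lost with scaling by library size alone (0.0535).

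Genes of mitosis, listed for comparison, had higher estimates than the replication genes. All 20 had a positive estimate, with a median log2 fold change of 0.69 beside 0.06 for the replication members and 0.00361 for all genes. At an unadjusted p under 0.05 there were 18 of the 20, beside 23.4% of all tested genes (11.4% higher), and 13 (65.0%) had separate groups with So(d18:1) higher, beside 7.14%. Those that passed at an adjusted p under 0.05 were 3 (15.0%), beside 8.94% of all tested genes (3.87% higher). This count depended on the test and the libraries. It was 11 in DESeq2, 12 in edgeR's likelihood ratio test, 18 in limma-voom and 9 with no filter on low counts, and without a single library it was 0 (Control replicate 4), 1 (Control replicate 3), 6 (So(d18:1) replicate 2) or 5 (So(d18:1) replicate 3), and 2 or 3 without any other. All genes called numbered 1495, 1565 and 1309 of 14514 in those tests and 1723 of 28076 with no filter. Without the libraries named they numbered 872, 985, 815 and 1113 in the same order. Cdc20, an activator of the anaphase-promoting complex, was at 8.85, 9.23, 6.87 and 6.36 CPM in Control replicates 1 to 4 and 11.9, 19.1, 10.3 and 14.1 CPM in So(d18:1), or 0.83 as log2 fold change (SE 0.196, edgeR adjusted p = 0.0269). Aurkb and Cdca8, which encode parts of the chromosomal passenger complex, rose by 0.48 and 0.58 on the log2 scale (edgeR adjusted p = 0.0174 and 0.0169). Groups were separate for all 3 genes, and So(d18:1) replicate 2 was the highest library for each. Cdca8 lost its call without Control replicate 4 (0.0536), Cdc20 without Control replicates 3 or 4 (0.108 and 0.0690) or So(d18:1) replicate 4 (0.0885), and Aurkb without Control replicates 3 or 4 (0.0528 and 0.0616) or So(d18:1) replicates 1 or 2 (0.0514 and 0.0665).

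The mitosis genes spread widely among libraries of one group. Their sum was 533, 588, 399.8 and 433 CPM in Control replicates 1 to 4 and 635, 989.9, 625 and 697 CPM in So(d18:1). So(d18:1) replicate 2 was the highest of its group for 20 of the 20 mitosis genes and for 19 of the 47 replication members, and Control replicates 3 and 4 were below replicates 1 and 2 in the sum. Control replicate 2 was the highest of its group for 17 of the 20 mitosis genes and for 12 of the 47 replication members. The median log2 fold change of the mitosis genes was 0.47 without So(d18:1) replicate 2 and 0.38 without both that library and Control replicate 3, while that of the replication members was 0.06 to 0.08 in every fit with a single library left out. The sum of the replication members was 1011, 994.5, 1056 and 1014 CPM in Control and 1025, 1072, 1013 and 1032 CPM in So(d18:1), with groups that overlapped. The neutrophil and granule markers given above were highest in Control replicates 3 and 4 and lowest in So(d18:1) replicate 2, while the mitosis genes were lowest in those Control libraries and highest in that So(d18:1) library, and the part of these markers in either result was not tested. Mcm3 and Pcna, like the markers, were highest in Control replicate 3, with 1 library accounting for the upper end of both.

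**Figure D5:**
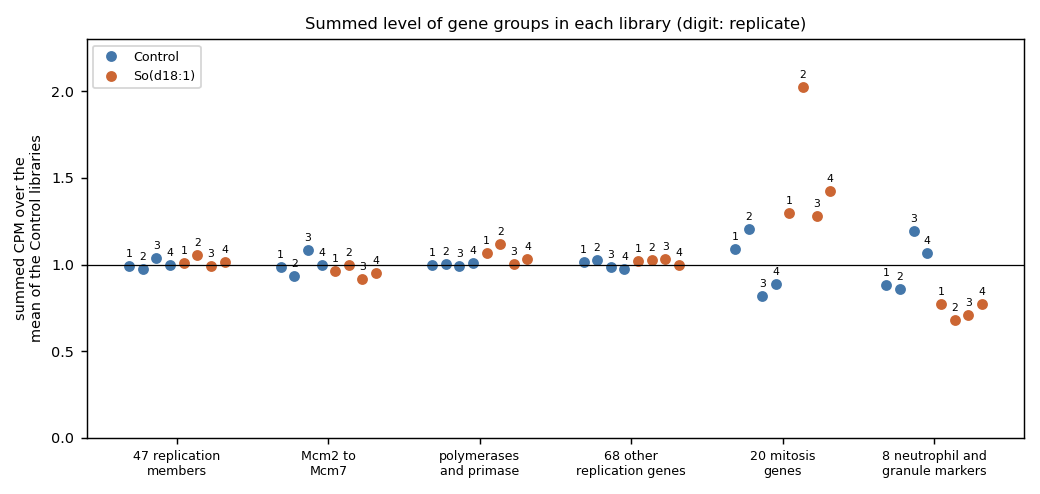
Summed CPM of 6 gene groups in each library divided by the mean of the 4 Control libraries (vertical axis, from 0), Control in blue and So(d18:1) in orange, with the replicate number at each point. The replication genes stay close to 1 in all libraries, the mitosis genes are higher in So(d18:1) with replicate 2 at 989.9 CPM before division, and the neutrophil and granule markers are lower in So(d18:1).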

How the data were processed

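Polyadenylated RNA from 4 Control and 4 So(d18:1) BMDM cultures was sequenced. Reads were trimmed with Trim Galore 0.6.7, aligned to mm10 with HISAT2 2.2.1 and counted with featureCounts 2.0.1, per the submitters' processing notes, and the authors deposited whole-number counts per gene without normalization. The strand setting and the treatment of reads that match several places are not given in the sources used here, so genes that overlap others or share sequence with a copy are uncertain. Of 55357 identifiers, 52081 carried a symbol in GENCODE M21, and those without one held 0.169% to 0.325% of the counts.

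Counts were fitted with edgeR 4.0.16 (R 4.3.3, limma 3.58.1) after filterByExpr and TMM scaling (factors 0.989 to 1.01), with robust quasi-likelihood F tests and Benjamini-Hochberg adjustment over all 14514 tested genes. Called, rose or fell means an adjusted p under 0.05. Standard errors were derived from F (the size of the log2 fold change over its square root), and 95% intervals use the degrees of freedom of the test. CPM are scaled by TMM. No block or covariate was used. Precision is set by 4 libraries per group. The model was checked on simulated counts with the same spread for every gene and independent libraries. That check does not cover the uneven spread between these libraries.

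Values were given per library for members that were called, for the member of smallest p in each role, and for Pcna, Mcm2 to Mcm7 and E2f1. Of the other replication genes and the mitosis genes, those called were named, up to 8 of each list. Other named genes were chosen after their values were seen. Members and lists were chosen with earlier results of these data known. Alternatives tried were scaling by library size alone, by upper quartiles or by the size factors of DESeq2, no filter, at least 10 counts in every library, the Wald test of DESeq2 1.42.0, edgeR's likelihood ratio test, limma-voom, the replicate number as a block, each library left out, and the threshold of the study's methods. Shared sequence was measured in words of 50 bases over annotated transcripts. Plots were made in Python 3.11.15 with matplotlib 3.10.9. Columns of gene length were used for levels per kb only.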

Additional observations from a re-analysis of the deposited data

Results flagged for a closer look

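In 8 of 142 groups of 4 libraries examined (the 47 members, the 10 called genes of the comparison lists, and 14 sums over roles and lists, each in Control and in So(d18:1)), 1 library lay apart from the other 3, with a gap over the group's range above the 95% critical value of Dixon's test for 4 samples. Chance gives about 1 in 20, or 7.1 groups here. In Control these were Mcm4 (ratio 0.845, replicate 4 at 30.4 CPM against 33.7 to 34.3), Pole (0.841, replicate 1 at 5.29 CPM against 4.30 to 4.46), Rpa1 (0.910, replicate 3 at 49.2 CPM against 46.3 to 46.5), Rpa3 (0.848, replicate 4 at 8.96 CPM against 7.64 to 7.84), Uhrf1 (0.948, replicate 1 at 9.72 CPM against 7.20 to 7.34) and the summed RPA genes (0.930, replicate 3 at 66.2 CPM against 62.7 to 63.0). In So(d18:1) these were Mcm7 (0.864, replicate 2 at 30.2 CPM against 23.2 to 24.2) and Pcna (0.970, replicate 4 at 81.5 CPM against 73.7 to 74.0). For Pcna the 3 libraries without replicate 4 were all below Control, and for Mcm7 the estimate without replicate 2 was 0.05 in place of 0.14.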

How the results depend on the processing

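The median log2 fold change of the replication members was positive under every alternative, from 0.0556 to 0.0843 when a library was left out. The number of members called was 2, and it was 1 under upper quartile scaling and under limma-voom, 4 in DESeq2 and in edgeR's likelihood ratio test, 0 by the study's threshold, and 0 to 4 when a library was left out, with 0 without Control replicate 4 and without So(d18:1) replicate 2 (7 and 5 members at an unadjusted p under 0.05 in edgeR). Leaving out Control replicate 3 and So(d18:1) replicate 2 together, chosen after seeing the data because they stood highest for many genes, gave 0 members (6 at an unadjusted p under 0.05), 722 of all genes, 4 other replication genes and 6 mitosis genes, and reversed E2f1 (-0.0138), Mcm5 (-0.0693) and Pola1 (-0.0027). All genes called numbered 1298, or 564 by the study's threshold and 815 to 1370 with a library left out. They numbered 1302 under upper quartile scaling, 1309 in limma-voom, 1495 in DESeq2 and 1565 in the likelihood ratio test. With no filter they numbered 1723 of 28076. The 7 other replication genes became 11 with no filter, 2 by the study's threshold and 3 to 7 with a library left out. The 3 mitosis genes became 9 with no filter, 11 in DESeq2, 12 in the likelihood ratio test, 18 in limma-voom, 14 by the study's threshold and 0 (without Control replicate 4, with 10 at an unadjusted p under 0.05) to 6 with a library left out. Over all tested genes, samples that share a replicate number correlated, after removal of group means, at -0.00351, 0.1, 0.0331 and 0.00909. The numbers were therefore not taken to pair them, and only replicate 2 correlated best with its own number. For the mitosis genes replicate 2 was the highest of its group for 17 of 20 in Control and 20 of 20 in So(d18:1), and pairing was not tested for these genes alone. With the replicate block 5 members (Gmnn at 0.0431, Orc6 at 0.0428 and Mcm3 at 0.0242 in edgeR, besides Rpa2 and Mcm10), 11 other replication genes and 19 mitosis genes were called. All genes called with the block numbered 1784 of 14514. The cause of these differences was not tested.

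Leaving out a library reversed the sign of 14 members, whose log2 fold changes then ranged from -0.0588 to 0.203 (Cdc45), -0.0389 to 0.113 (Cdt1), -0.115 to 0.0174 (Chaf1b), -0.00341 to 0.0495 (E2f1), -0.402 to 0.0525 (Fen1), -0.0305 to 0.127 (Gins1), -0.125 to 0.00459 (Gins3), -0.0505 to 0.0242 (Mcm4), -0.0242 to 0.105 (Mcm5), -0.0619 to 0.0462 (Pola2), -0.112 to 0.175 (Pold2), -0.0243 to 0.0403 (Pold3), -0.105 to 0.0663 (Rpa3) and -0.0717 to 0.066 (Rrm2).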
